A study of Mus musculus with 12 samples.

Results

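The transcripts that mark eosinophils and their granules were followed in cultured mouse bone marrow cells: the granule protein genes *Prg2* and *Epx*, the receptor genes *Il5ra* and *Ccr3*, and 5 genes of the Ear ribonuclease family, *Ear1*, *Ear2*, *Ear6*, *Ear10* and *Rnase2a*. These are 9 of the 54532 genes in the table of counts, taken by their symbols. They were chosen by what earlier results of the same libraries had shown of their counts and fold changes. Their levels, fold changes and calls are therefore descriptions, with no test. The cells came from wild-type (WT) mice of the C57BL/6 strain and grew for 5 days with GM-CSF and IL-6, which push marrow progenitors along the myeloid lineage. The 12 RNA-seq libraries are 4 of cells given vehicle (DMSO), 4 of cells given 10 µM indole-3-propionic acid (IPA, a tryptophan metabolite of gut microbes) and 4 of cells given 50 µM IPA. Genotype, cytokines and day of harvest were the same in all 3 groups. The paper describes 50 µM as above physiological levels and reports that it slightly lowered the viability of such cultures, while 10 µM did not. For that reason its own RNA-seq analysis kept to 10 µM. The part of viability in the values at 50 µM was not tested. The labels do not say whether the libraries of a group came from separate mice or cultures, so the spread between them may be technical.

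Eosinophils form in the bone marrow from myeloid progenitors under the cytokines IL-5, IL-3 and GM-CSF, whose receptors share the beta chain encoded by *Csf2rb*. Their granules store cationic proteins: major basic protein (*Prg2*), eosinophil peroxidase (*Epx*) and the eosinophil-associated ribonucleases (Ear), a branch of the ribonuclease A superfamily that has duplicated many times in rodents. *Il5ra* encodes the IL-5-specific receptor chain, and *Ccr3* the receptor for eotaxin chemokines. Transcripts of Ear genes are also found in mouse macrophages, including those of the lung alveoli.

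The libraries held between 20451312 and 28038612 counted reads. All 9 genes passed the filter of more than 0.5 CPM (read counts scaled to the library's total) in at least 2 of the 12 libraries, which kept 14894 genes. Counts were low for *Il5ra* (3 to 30 per library), for *Ccr3* (14 to 72), for *Ear10* (21 to 69) and for *Rnase2a* with vehicle (0 to 20), and only *Il5ra* and *Rnase2a* fell under 10 counts in some library. CPM are TMM-normalized over the 12 libraries, and fold changes are those of edgeR's quasi-likelihood fit on the 8 libraries compared. In a culture of mixed cells, fewer cells of a type and less RNA per cell cannot be told apart. Genes of neutrophils made up a far larger part of these libraries than the 9 genes, which summed to between 863.5 and 1382 CPM per library. The summed level of 10 secondary granule and mature neutrophil genes was between 17150 and 31650 CPM.

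With vehicle, the granule protein genes stood highest per kilobase of exon, the scale on which genes of different length can be compared. *Prg2* had 697 CPM per kilobase and *Epx* 186. The ribonucleases *Ear2* (74.1), *Ear6* (62.5) and *Ear1* (58.1) followed, and the libraries of *Ear6* and *Ear1* overlapped. *Ear10* was at 3.20, and *Rnase2a* (0.556), *Ccr3* (0.227) and *Il5ra* (0.206) came last, each overlapping the next. At 50 µM IPA the order of the lower genes was different, with *Rnase2a* at 11.1 CPM per kilobase above *Ear10* at 1.71 and without overlap between them. At 10 µM these 2 genes overlapped, at 3.97 for *Rnase2a* and 2.64 for *Ear10*.

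**Figure D1:**
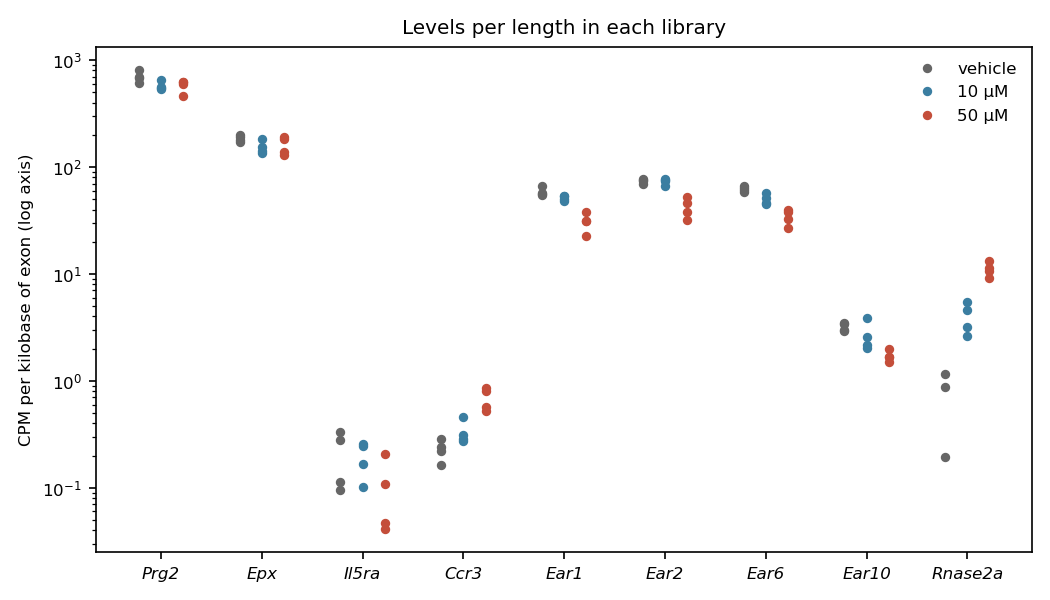
Level of each gene in CPM per kilobase of exon (log axis), 1 point per library, by group. *Rnase2a* moves from the bottom of the range with vehicle to above *Ear10* at 50 µM; its vehicle library with 0 counts has no point on the log axis.

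By edgeR's test, 0 of the 9 genes passed an adjusted p of 0.05 over all genes at 10 µM, where 0.410% of all genes tested passed (0.329% higher and 0.0806% lower). Among the 9, 5 had an unadjusted p under 0.05, DESeq2 called 1 (*Ear6*) and limma-voom 0. At 50 µM against vehicle, 6 of the 9 passed, *Ccr3* and *Rnase2a* higher and *Ear1*, *Ear2*, *Ear6* and *Ear10* lower, where 13.5% of all genes passed (7.00% higher and 6.50% lower). At 50 µM against 10 µM, 5 of the 9 passed, *Ccr3* and *Rnase2a* higher and *Ear1*, *Ear2* and *Ear6* lower, where 15.4% of all genes passed (7.52% higher and 7.85% lower). Nothing is read from these counts, since the genes were chosen with such results known. The median log2 fold change of the 9 genes was -0.18, -0.81 and -0.54 in the 3 comparisons, beside -0.01, 0.01 and 0.01 over all genes tested. The comparisons share groups, so their values are given side by side and are not independent.

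**Figure D2:**
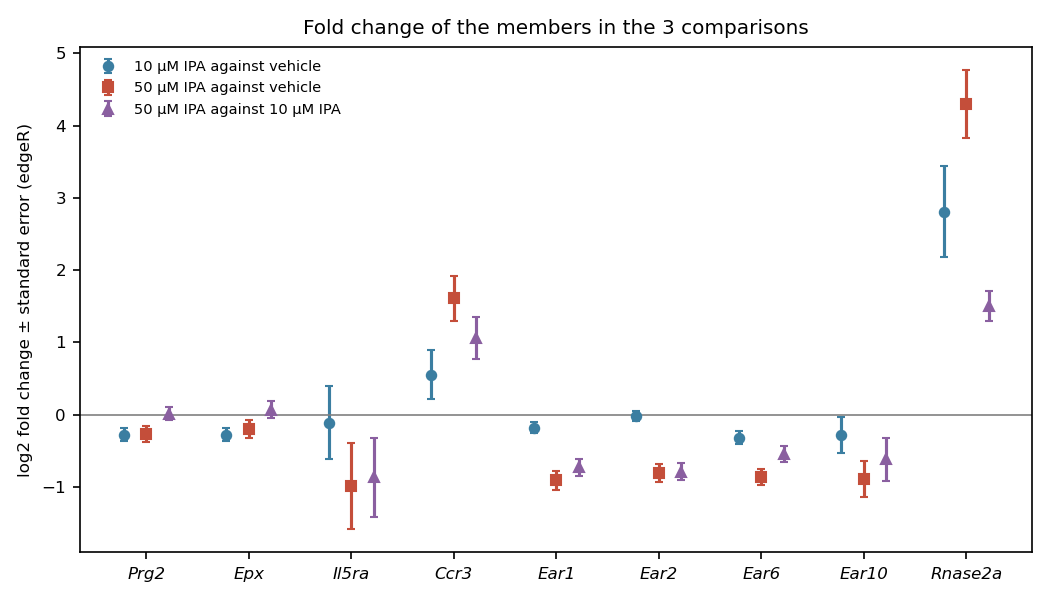
log2 fold change of each gene with its standard error from edgeR in the 3 comparisons, 4 libraries per group. *Rnase2a* lies above 0 in all 3 (2.81, 4.30 and 1.50), *Ear1*, *Ear2*, *Ear6* and *Ear10* lie below 0 in both comparisons with 50 µM, and *Prg2* and *Epx* stay within 0.3 of 0.

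*Prg2* (ENSMUSG00000027073, chromosome 2 of GRCm38, 84980461 to 84983632) encodes the major basic protein of the granule core, which is toxic to parasites and to tissue. Its level was 509, 572, 580 and 677 CPM in the 4 libraries with vehicle, 456, 451, 549 and 471 at 10 µM and 390, 524, 496 and 522 at 50 µM. Library 1 with vehicle lay among the treated libraries, and the other vehicle libraries lay above all 8 of them. Fitted log2 fold changes were -0.28 (standard error 0.09) at 10 µM and -0.27 (standard error 0.11) at 50 µM, and both groups overlapped vehicle. At 50 µM the adjusted p crossed the threshold with no filter on low counts.

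*Epx* (ENSMUSG00000052234, chromosome 11, 87864000 to 87875536) encodes the eosinophil peroxidase, which makes hypohalous acids from hydrogen peroxide. Its level was 474, 521, 492 and 544 CPM with vehicle, 367, 383, 501 and 422 at 10 µM and 378, 503, 352 and 521 at 50 µM. The vehicle libraries lay close together, and in each IPA group some libraries fell inside their range and others below it. In edgeR's fit this gave a log2 fold change of -0.28 (standard error 0.09) at 10 µM and -0.20 (standard error 0.12) at 50 µM. Between the 2 doses both granule protein genes differed little, with a log2 fold change at 50 µM against 10 µM of 0.01 (standard error 0.09) for *Prg2* and 0.07 (standard error 0.12) for *Epx*.

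*Il5ra* (ENSMUSG00000005364, chromosome 6, 106710357 to 106749037) encodes the alpha chain that binds IL-5. It had 9, 27, 9 and 30 counts in the libraries with vehicle, 10, 19, 16 and 19 at 10 µM and 8, 20, 3 and 4 at 50 µM. The lowest 2 libraries of all were at 50 µM, yet the 3 groups overlapped and the vehicle libraries themselves spanned 0.340 to 1.19 CPM. On the log2 scale the fitted difference was -0.11 (standard error 0.50) at 10 µM and -0.99 (standard error 0.60) at 50 µM, and neither was called. With 1 library left out, the value at 50 µM ranged from -1.64 (without replicate 2 of that group) to -0.65 (without replicate 4 of vehicle).

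*Ccr3* (ENSMUSG00000035448, chromosome 9, 124021972 to 124031689) encodes the eotaxin receptor by which eosinophils are drawn into tissue. It had 14, 21, 21 and 18 counts with vehicle, 26, 31, 24 and 22 at 10 µM and 35, 72, 58 and 44 at 50 µM. In the same order of groups the means were 0.742 ± 0.170, 1.09 ± 0.278 and 2.25 ± 0.555 CPM (SD, n = 4 each). All 4 libraries at 50 µM lay above every other library, whereas the 10 µM and vehicle libraries overlapped. Fitted log2 fold changes were 0.55 (standard error 0.34) at 10 µM, 1.61 (standard error 0.31) at 50 µM and 1.06 (standard error 0.29) between the doses. Of the 8 fits between the doses with 1 library left out, 3 did not call it, those lacking 10 µM replicate 3, 50 µM replicate 2 or 50 µM replicate 3, and the log2 fold change ranged from 0.95 to 1.25 over all 8. The mean of *Il5ra*, which was not called, was 0.735 ± 0.427 CPM in the vehicle group beside 0.359 ± 0.273 at 50 µM (SD, n = 4 each). Whether the fold changes of the 2 receptor genes differ was not tested.

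**Figure D3:**
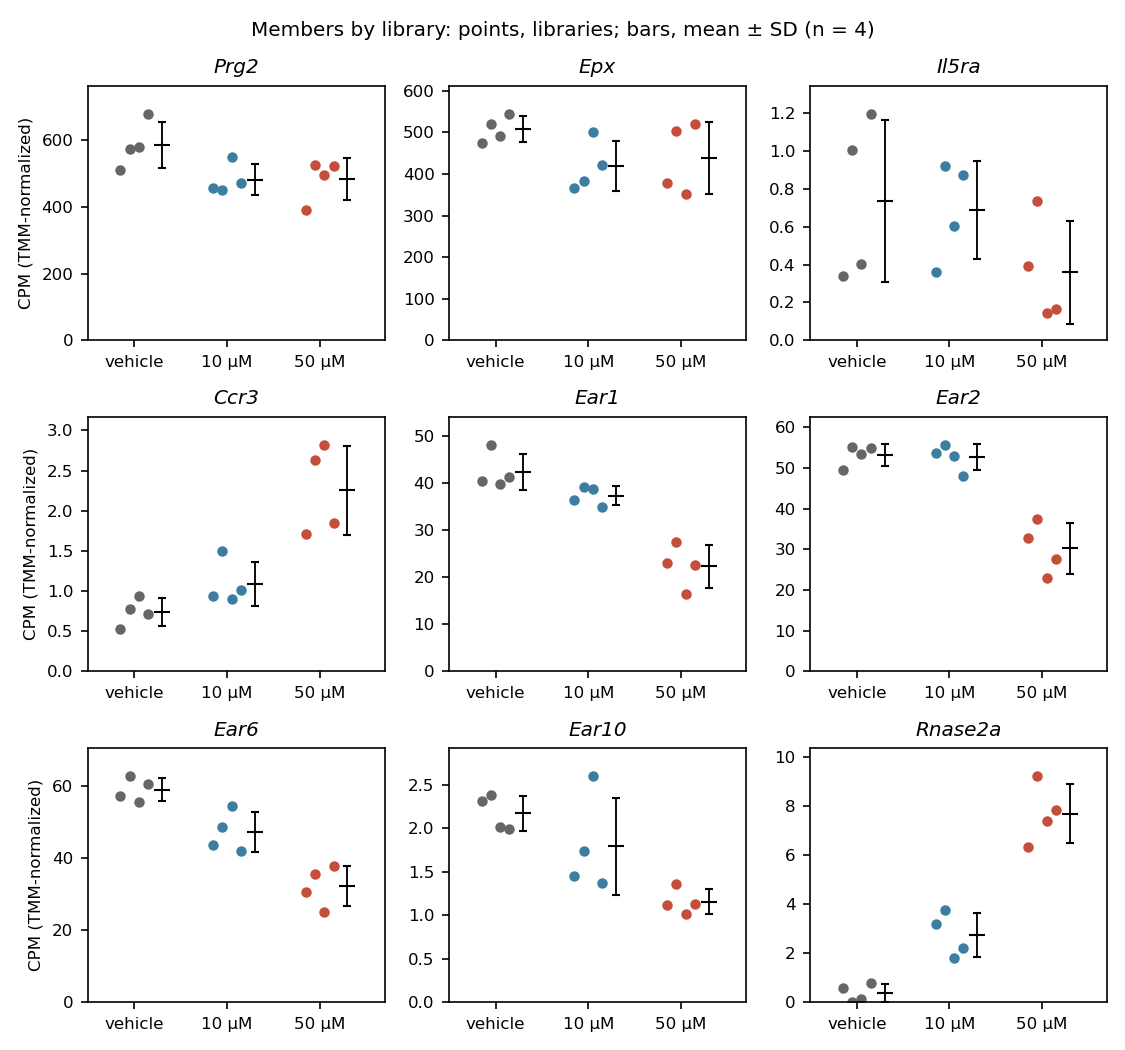
CPM of each of the 9 genes in every library (points) with the mean and SD of the 4 libraries of a group (bars), each panel on its own linear axis from 0. The 50 µM points of *Ear1*, *Ear2*, *Ear6* and *Ear10* lie below, and those of *Ccr3* and *Rnase2a* above, all vehicle points; *Prg2*, *Epx* and *Il5ra* overlap.

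The 5 ribonuclease genes lie on chromosome 14 of GRCm38: *Ear1* (ENSMUSG00000072601, 43818765 to 43875517, minus strand), *Ear10* (ENSMUSG00000090166, 43922720 to 43923559, minus strand), *Ear2* (ENSMUSG00000072596, 44102654 to 44103534, plus strand), *Rnase2a* (ENSMUSG00000047222, 51255262 to 51256112, minus strand) and *Ear6* (ENSMUSG00000062148, 51853699 to 51854643, plus strand). Their coding sequences are close copies. That of *Ear2* was 97.0% identical to *Ear10*, 95.7% to *Ear1*, 88.2% to *Ear6* and 81.4% to *Rnase2a* over the aligned bases. Of all stretches of 75 bases in their transcripts, 39.3% in *Ear1*, 32.5% in *Ear10* and 23.4% in *Ear2* also occurred in another gene, namely in each other, *Ear-ps2* or *Ear-ps9*, so the split of reads between *Ear1*, *Ear2* and *Ear10* is uncertain. *Ear6*, *Rnase2a*, *Prg2*, *Epx*, *Il5ra* and *Ccr3* shared 0 such stretches with another gene. *Ear1* overlaps 4 annotated genes, among them the pseudogenes *Ear-ps9* and *Ear-ps12* on its own strand, and *Ear2* lies opposite *Gm49101*; the strand setting of the counting is not stated.

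The promoters of the 5 ribonucleases are shown because *Ear1*, *Ear2*, *Ear6* and *Ear10* were lower and *Rnase2a* higher at 50 µM, while the sequence before their starts is shared. The windows come from RefSeq on GRCm38.p6, where 8 of the 9 genes have an entry, and run from 250 bases before the annotated start through the first 30 bases of the transcript: chr14:44102404-44102683 for *Ear2*, chr14:43819610-43819889 for *Ear1*, chr14:43923567-43923846 for *Ear10*, chr14:51853518-51853797 for *Ear6* and chr14:51256083-51256362 for *Rnase2a*, each read 5′ to 3′ on the strand of its gene. Capitals mark bases that differ from *Ear2* or have no *Ear2* base opposite them.
Ear2: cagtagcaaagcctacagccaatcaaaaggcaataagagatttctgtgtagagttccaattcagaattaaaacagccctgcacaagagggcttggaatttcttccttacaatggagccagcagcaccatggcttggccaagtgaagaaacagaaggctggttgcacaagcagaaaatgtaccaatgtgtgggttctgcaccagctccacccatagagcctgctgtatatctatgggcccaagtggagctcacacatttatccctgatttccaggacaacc
Ear1: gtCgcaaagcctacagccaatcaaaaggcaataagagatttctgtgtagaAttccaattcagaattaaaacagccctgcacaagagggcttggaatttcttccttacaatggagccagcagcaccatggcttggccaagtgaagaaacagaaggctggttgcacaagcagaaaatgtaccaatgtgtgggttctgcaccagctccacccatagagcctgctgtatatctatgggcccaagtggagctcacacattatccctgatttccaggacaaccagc
Ear10: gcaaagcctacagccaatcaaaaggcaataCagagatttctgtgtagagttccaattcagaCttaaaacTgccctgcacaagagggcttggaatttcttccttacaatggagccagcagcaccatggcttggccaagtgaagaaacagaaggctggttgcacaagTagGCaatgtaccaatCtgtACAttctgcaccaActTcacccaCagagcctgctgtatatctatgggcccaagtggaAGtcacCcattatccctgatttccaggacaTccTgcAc
Ear6: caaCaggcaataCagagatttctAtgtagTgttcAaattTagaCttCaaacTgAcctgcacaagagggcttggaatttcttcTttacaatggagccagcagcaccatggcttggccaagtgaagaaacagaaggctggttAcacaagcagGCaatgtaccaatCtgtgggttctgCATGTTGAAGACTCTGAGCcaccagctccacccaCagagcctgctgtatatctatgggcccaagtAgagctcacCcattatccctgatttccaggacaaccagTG
Rnase2a: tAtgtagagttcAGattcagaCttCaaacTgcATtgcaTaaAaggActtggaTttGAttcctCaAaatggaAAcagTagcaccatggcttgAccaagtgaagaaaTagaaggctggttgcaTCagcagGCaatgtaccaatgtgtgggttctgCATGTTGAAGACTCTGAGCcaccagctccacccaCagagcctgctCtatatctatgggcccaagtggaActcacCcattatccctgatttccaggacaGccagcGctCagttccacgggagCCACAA
Over the 300 bases around the start, *Ear2* was 99.0% identical to *Ear1*, 93.2% to *Ear10*, 92.8% to *Ear6* and 87.5% to *Rnase2a* at the aligned bases. *Ear6* and *Rnase2a* both held a stretch of 19 bases, CATGTTGAAGACTCTGAGC, that the other windows lacked. It began 75 bases before the start of *Ear6* and 97 before that of *Rnase2a*, and these 2 were the only ones of 27025 mouse promoters of this length with it. The stretch thus occurred in one gene that was lower and one that was higher at 50 µM. A search on both strands found GATAA, the core letters bound by GATA factors, in 7 of the 8 windows, all but that of *Epx*, and in 25.8% of all promoters. CCAAT occurred in the same 7 windows and in 37.9% of all promoters. These 7 include the windows of all the ribonucleases, which share sequence and so are not independent of each other. The shares of all promoters are therefore no measure of enrichment here. GAGGAA, core letters of PU.1 sites, occurred in *Rnase2a*, *Il5ra* and *Ccr3* and in 28.3% of all promoters, TATAAA in *Epx* and in 14.2%, and TTCNNNGAA, the letters of a STAT site, in 0 of the 8 and in 8.47%. These matches describe letters and not binding.

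**Figure D4:**
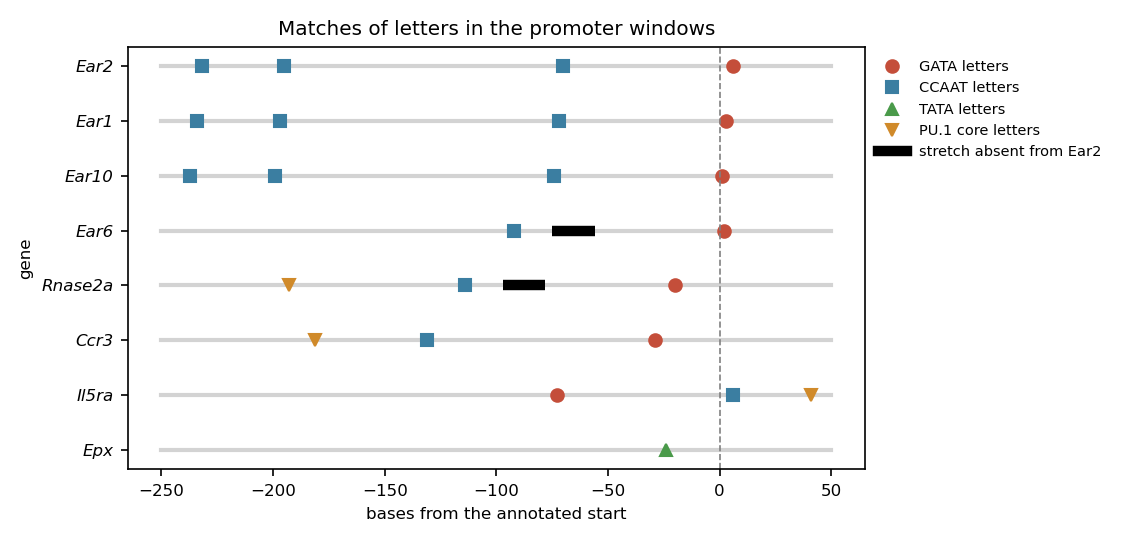
Positions of the searched letters in the promoter windows of 8 genes, as bases from the annotated start (dashed line); black bars mark the 19-base stretch of *Ear6* and *Rnase2a*. *Ear1*, *Ear2* and *Ear10* each hold 3 CCAAT matches, and *Ear6* and *Rnase2a* 1 each; the GATA match lies just after the start in *Ear1*, *Ear2*, *Ear10* and *Ear6* and before it in *Rnase2a*.

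*Ear2*, whose human relatives in eosinophil granules act against RNA viruses, had 49.4, 55.2, 53.5 and 54.8 CPM with vehicle, 53.8, 55.6, 53.0 and 48.1 at 10 µM and 32.9, 37.5, 23.0 and 27.5 at 50 µM. The vehicle and 10 µM libraries overlapped, and every 50 µM library lay below them. On the log2 scale the differences were -0.02 (standard error 0.07) at 10 µM, -0.81 (standard error 0.12) at 50 µM and -0.79 (standard error 0.12) between the doses.

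*Ear1*, its closest neighbour in promoter sequence, had 40.6, 48.1, 39.7 and 41.2 CPM with vehicle, 36.4, 39.2, 38.9 and 34.9 at 10 µM and 23.0, 27.5, 16.4 and 22.6 at 50 µM. The 10 µM libraries lay just below the vehicle libraries and the 50 µM libraries below both. The log2 fold change was -0.18 (standard error 0.08) at 10 µM, which was not called, -0.91 (standard error 0.13) at 50 µM and -0.73 (standard error 0.12) between the doses.

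*Ear6*, the most abundant of the 5 in CPM with vehicle, had 57.2, 62.7, 55.7 and 60.6 CPM with vehicle, 43.7, 48.6, 54.4 and 42.1 at 10 µM and 30.7, 35.6, 25.1 and 37.8 at 50 µM. The 3 groups did not overlap, and they stood in the order of the dose. The log2 fold change was -0.32 (standard error 0.09) at 10 µM, -0.86 (standard error 0.11) at 50 µM and -0.54 (standard error 0.11) between the doses. The value at 10 µM was called by DESeq2 (log2 fold change -0.33) and not by edgeR.

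*Ear10* had 61, 64, 45 and 50 counts with vehicle, 40, 36, 69 and 30 at 10 µM and 23, 37, 21 and 27 at 50 µM. In CPM, the 50 µM libraries (1.02 to 1.36) lay below all others, the nearest being replicate 4 of the 10 µM group at 1.37, and replicate 3 at 10 µM (2.60) was the highest of the 12 libraries. As log2 fold changes these were -0.28 (standard error 0.25) at 10 µM, -0.89 (standard error 0.25) at 50 µM and -0.62 (standard error 0.30) between the doses. The call at 50 µM was lost in 6 of the 8 fits with 1 library left out, those without replicate 1, 2 or 3 of vehicle or replicate 1, 3 or 4 of the 50 µM group, while the log2 fold change ranged from -0.99 to -0.84 over all 8 fits; it was also lost with no filter (-0.90).

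*Rnase2a*, a mouse relative of the gene for human eosinophil-derived neurotoxin, had 16, 0, 3 and 20 counts with vehicle, 88, 78, 48 and 48 at 10 µM and 129, 251, 152 and 186 at 50 µM. The count of 0 allows a level of up to 3 counts, or 0.111 CPM, in that library. In the same order of groups the means were 0.384 ± 0.378, 2.74 ± 0.902 and 7.67 ± 1.20 CPM (SD, n = 4 each). The 3 groups did not overlap and stood in the order of the dose. The vehicle libraries differed among themselves, with replicates 1 and 4 at 0.605 and 0.795 CPM and replicate 3 at 0.134. The log2 fold change was 2.81 (standard error 0.63) at 10 µM, 4.30 (standard error 0.47) at 50 µM and 1.50 (standard error 0.21) between the doses. At 10 µM edgeR did not call it on the 8 libraries, and called it with no filter, with all 12 libraries in the fit and without replicate 4 of vehicle (log2 fold change 3.43). With 1 library left out, the values against vehicle ranged from 2.38 to 3.43 at 10 µM and from 3.86 to 4.92 at 50 µM, lowest without replicate 2 of vehicle and highest without replicate 4 of vehicle; at 50 µM the call was kept in all 8 fits. limma-voom gave larger values, 3.76 at 10 µM, which was not called, and 5.33 at 50 µM.

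At 10 µM, 3 of the 9 genes did not overlap between groups, *Rnase2a* higher and *Ear1* and *Ear6* lower, beside 6.13% of all genes tested (3.57% higher and 2.56% lower). At 50 µM, 6 of the 9 did not overlap with vehicle, beside 20.0% of all genes (9.45% higher and 10.5% lower), and 6 with the 10 µM group, beside 20.3% (9.43% higher and 10.9% lower). Over the 12 libraries, Pearson's r of log2 CPM was 0.97 between *Ear1* and *Ear2*, 0.95 between *Ear1* and *Ear6* and 0.80 between *Prg2* and *Epx*. It was -0.80 between *Rnase2a* and *Ear6*, 0.75 between *Rnase2a* and *Ccr3* and 0.31 between *Prg2* and *Il5ra*. These values describe 12 libraries that include the groups, and *Ear1* and *Ear2* share sequence.

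Outside the 9 genes, and among those averaging 1 CPM or more, the 3 with the highest r for each gene were as follows. For *Prg2* they were *Tarsl2* (0.905), *Prg3* (0.901), which encodes a second major basic protein, and *Fbxo3* (0.861). For *Epx* they were *Eri2* (0.875), *Ppm1e* (0.864) and *Cited4* (0.852). For *Ccr3* they were *Gimap3* (0.967), *Pgm3* (0.953) and *Mgl2* (0.951), a C-type lectin gene of macrophages and dendritic cells that stood at 291.4 CPM with vehicle, 374.5 at 10 µM and 631.8 at 50 µM. For *Rnase2a* they were *Vat1* (0.958), *Anxa4* (0.947) and *Ctsl* (0.943), the gene of the lysosomal protease cathepsin L, at 379.7, 662.3 and 852.8 CPM. For *Ear6* they were *Inpp1* (0.958), *Entpd5* (0.951) and *Rnf144b* (0.945), for *Ear1* *Stag1* (0.966), *Dpp9* (0.962) and *Rbm12* (0.957), and for *Ear2* *Prpf19* (0.965), *Rab11b* (0.962) and *Rbm12* (0.961). For *Ear10* they were *Serpina3f* (0.922), N4bp1 (0.903) and *Ptgs2* (0.887), and for *Il5ra* *Rundc3a* (0.910), *Ska3* (0.873) and *Isg20l2* (0.868). These r are over 12 libraries in 3 groups and carry no test.

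Other genes of eosinophils did not move as one. Of 6 listed, 4 passed the filter, and *Ptgdr2* (0 to 8 counts) and *Hrh4* (0 to 17 counts) did not. At 50 µM against vehicle, *Alox15*, a lipoxygenase of eosinophils and macrophages, rose from 10.2 ± 2.73 to 24.8 ± 3.35 CPM (SD, n = 4; log2 fold change 1.29, edgeR adjusted p = 0.000253). *Prg3* fell from 30.1 ± 4.62 to 21.8 ± 3.04 CPM (SD, n = 4; log2 fold change -0.46, edgeR adjusted p = 0.0293). *Siglecf*, a sialic acid-binding receptor of eosinophils and alveolar macrophages, was at 26.4 CPM with vehicle and 27.7 at 50 µM, and *Il1rl1*, the IL-33 receptor, at 20.8 and 20.5. The median log2 fold change of the 4 was 0.03 at 50 µM. At 10 µM, 0 of the 4 were called by edgeR, DESeq2 or limma-voom, and 1 had an unadjusted p under 0.05.

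Of 13 transcription factors that act in the eosinophil and neighbouring myeloid lineages, 0 were called by edgeR at 10 µM (4 had an unadjusted p under 0.05, DESeq2 called 2 and limma-voom 0), and at 50 µM against vehicle 3 were higher and 4 lower (median log2 fold change -0.09). *Gata2*, a factor of progenitors, basophils and eosinophils, rose from 46.1 ± 3.54 to 101.5 ± 7.44 CPM (SD, n = 4; log2 fold change 1.15, edgeR adjusted p = 3e-06). *Zfpm1*, which encodes the GATA cofactor FOG-1, rose by 0.85 on the log2 scale and *Irf8*, a factor of monocytes and dendritic cells, by 0.40. *Gata1*, the factor without which eosinophils do not form, was at 5.80 CPM with vehicle and 5.41 at 50 µM (log2 fold change -0.09). *Cebpe*, needed for the granules of neutrophils and eosinophils, fell by 0.31, and *Id1*, *Trib1* and *Ikzf1* fell by 0.48, 0.36 and 0.49.

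Of 15 genes for IL-5 family cytokines, receptors and their signalling, 12 passed the filter, with 0 called at 10 µM by edgeR, DESeq2 or limma-voom (1 had an unadjusted p under 0.05) and 3 higher and 1 lower at 50 µM against vehicle by edgeR (median log2 fold change 0.15). *Csf2rb*, the beta chain shared by the receptors for IL-5, IL-3 and GM-CSF, rose by 0.34 on the log2 scale to 3710 CPM at 50 µM. The kinase genes *Jak2* and *Pim1* rose by 0.30 and 0.25, the latter lost with no filter, and *Lyn* fell by 0.34. The cytokine genes themselves were near or at 0, with 0 counts of *Il3* in every library, 0 to 6 counts of *Il5* and 0 to 2 of *Csf2*.

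Of 5 genes for CCR3 ligands, *Ccl11* (eotaxin-1) had 0 counts in all 12 libraries and the other 4 were tested, with a median log2 fold change of 1.11 at 10 µM and 1.07 at 50 µM. *Ccl24*, which encodes eotaxin-2, averaged 1.31 ± 0.170 CPM in vehicle libraries and rose to 4.70 ± 1.08 at 10 µM (SD, n = 4 each; log2 fold change 1.83, edgeR adjusted p = 0.00980) and 13.1 ± 5.95 at 50 µM (log2 fold change 3.31, edgeR adjusted p = 3.17e-05). At 50 µM *Ccl7* rose by 1.44 on the log2 scale and *Ccl5* by 0.70. *Ccl8* had a log2 fold change of -1.85 at 50 µM, with overlapping groups and a call that limma-voom did not make; leaving out 1 library gave values between -2.43 (50 µM replicate 1 omitted) and -1.38 (vehicle replicate 3 omitted), and the call was lost in 4 of the 8 such fits, those lacking vehicle replicate 3 or 50 µM replicate 2, 3 or 4.

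Of 8 tested genes for type 2 cytokines and receptors, *Il33*, an alarmin that activates eosinophils and innate lymphoid cells, rose at 10 µM from 1.09 ± 0.327 to 3.84 ± 1.03 CPM (SD, n = 4; log2 fold change 1.82, edgeR adjusted p = 0.0213) and stood at 2.19 at 50 µM (log2 fold change 1.01 against vehicle). The receptor genes *Il4ra* and *Il13ra1* fell at 50 µM by 0.23 and 0.37. *Il13* had a log2 fold change of 1.81 from 0.288 to 0.995 CPM, with overlapping groups and a call lost with limma-voom and with all 12 libraries in the fit. Of 26 other genes of the ribonuclease A family and its inhibitor, 6 passed the filter and 11 had 0 counts in all libraries. By edgeR, DESeq2 and limma-voom, 0 of the 6 were called at either dose against vehicle, with 2 at 10 µM and 1 at 50 µM having an unadjusted p under 0.05; *Rnase4* stood at 12.6 and 12.4 CPM with vehicle and 50 µM, *Rnase6* at 15.3 and 15.6, and *Rnh1*, the ribonuclease inhibitor gene, at 212.4 and 212.2. *Rnase2b*, a paralog of *Rnase2a*, had 0 to 7 counts.

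Several of these calls at 50 µM against vehicle were lost when 1 library was left out, while every fold change kept its sign. Without replicate 2 of the 50 µM group, *Prg3*, *Cebpe*, *Id1*, *Trib1*, *Csf2rb*, *Jak2*, *Pim1*, *Ccl8*, *Il13*, *Il33*, *Il4ra* and *Il13ra1* were no longer called, and without replicate 3 of vehicle the same genes apart from *Jak2* and *Il13*. The calls of *Trib1*, *Pim1*, *Il13*, *Il33* and *Il4ra* were lost in 5 or more of the 8 fits with 1 library left out, with log2 fold changes of -0.44 to -0.33, 0.20 to 0.28, 1.56 to 2.37, 0.90 to 1.21 and -0.26 to -0.21. *Alox15*, *Gata2*, *Zfpm1*, *Irf8*, *Ikzf1*, *Lyn*, *Ccl24*, *Ccl5* and *Ccl7* were called in all 8. At 10 µM, *Ccl24* was lost without replicate 2 of that group, and *Il33* without replicate 1, 2 or 3 of vehicle or replicate 2 or 3 of the 10 µM group (1.62 to 2.02 on the log2 scale over the 8 fits).

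**Figure D5:**
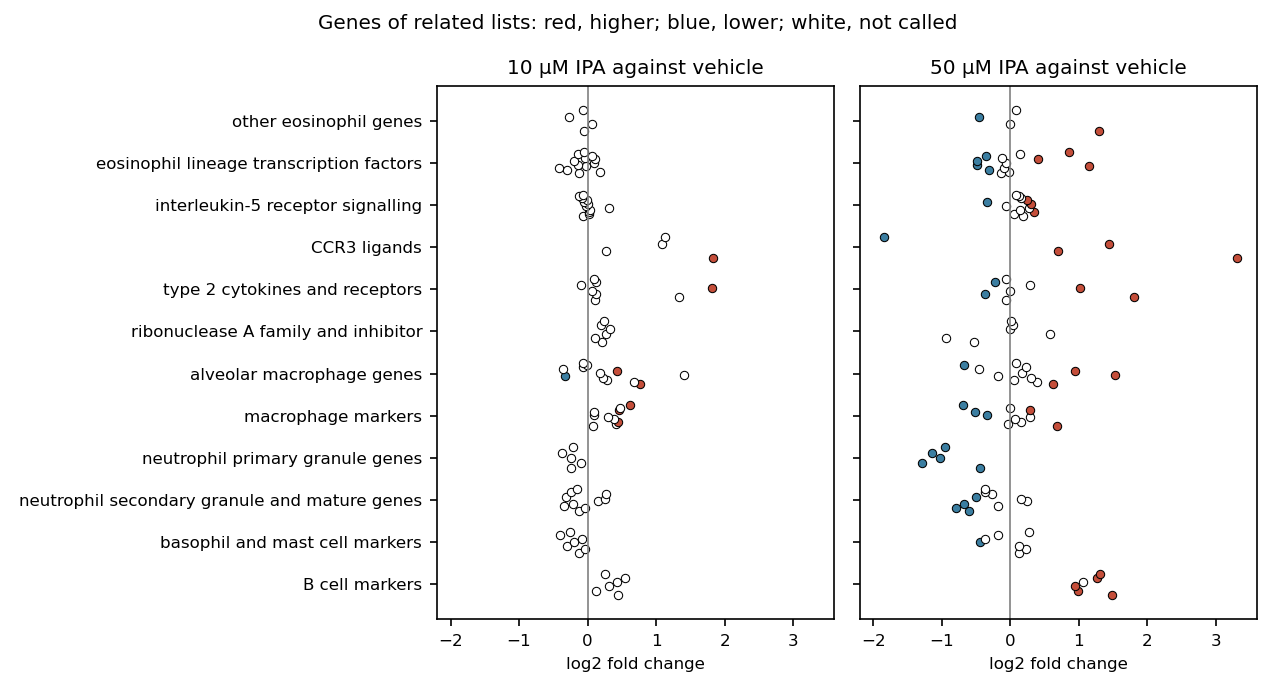
log2 fold change of single genes in 12 lists at 10 µM (left) and 50 µM (right) against vehicle, each point a gene, red or blue where edgeR called it higher or lower and white where not. At 50 µM all 5 neutrophil primary granule genes lie left of 0 and called, all 6 B cell markers right of 0 with 5 called, and the CCR3 ligands reach 3.31.

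Some lists of markers of other cells also differed between the groups, and others did so little or in both directions. The 5 tested neutrophil primary granule genes, such as *Elane* and *Mpo*, which myeloid precursors transcribe, were all lower at 50 µM (log2 fold changes -1.29 and -1.02 for these), and their summed level was 776 to 1109 CPM at 50 µM and 1624 to 2347 with vehicle. Of 10 secondary granule and mature neutrophil genes, 4 were lower. The summed level of 6 B cell markers was 19.1 to 27.2 CPM with vehicle, 24.2 to 34.1 at 10 µM and 37.9 to 60.9 at 50 µM, where 5 of the 6 were higher; none of them was at 0. Of 7 tested basophil and mast cell markers, 1 (*Kit*) was lower at 50 µM against vehicle, and their summed level was 371.9 to 484.4 CPM beside 383.8 to 473.9 with vehicle. Of 10 macrophage markers, 3 were higher at 10 µM, and at 50 µM 2 were higher and 3 lower than with vehicle, with summed levels of 1837 to 2040 CPM with vehicle, 2170 to 2404 at 10 µM and 1816 to 1963 at 50 µM. Of 12 tested alveolar macrophage genes, 2 were higher and 1 lower at 10 µM. At 50 µM *Fabp4*, *Atp6v0d2* and *Lpl* were higher and *Pparg* lower (log2 fold change -0.68), with summed levels over the list of 8609 to 9094 CPM with vehicle, 7976 to 8665 at 10 µM and 9296 to 10510 at 50 µM. Most of these sums came from *Chil3* (means of 5971, 4748 and 5258 CPM in that order of groups) and *Lpl* (1524, 2049 and 2902). Without replicate 2 of the 10 µM group, 0 genes of the related lists were called by edgeR at 10 µM. *Lpl* and *Chil3* lost the call there in 7 of the 8 fits with 1 library left out, all but that without replicate 4 of vehicle. C1qb kept it only without replicate 4 of vehicle or of the 10 µM group, *Mrc1* only without replicate 3 or 4 of vehicle, and *Atp6v0d2* lost it without replicate 1 of vehicle or replicate 2 of the 10 µM group. The log2 fold changes over these fits were 0.37 to 0.48 for *Lpl*, -0.37 to -0.30 for *Chil3*, 0.37 to 0.51 for C1qb, 0.56 to 0.74 for *Mrc1* and 0.68 to 0.87 for *Atp6v0d2*. At 50 µM, *Ctsg* lost the call in 3 of the 8 fits (-0.52 to -0.35), those without replicate 3 of vehicle or replicate 1 or 2 of the 50 µM group. The part of these cells in the values of the 9 genes was not tested.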

How the data were processed

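The authors made libraries with a stranded mRNA kit, trimmed adapters (Atropos), mapped reads to mm10 (hisat2 2.2.1) and summed them over Ensembl genes (featureCounts 2.0.1, versions per the submitters' processing notes); the strand setting is not stated. The deposited values are raw counts, without normalization or filter. The members and lists were chosen with earlier results of these data known. Groups came from the labels; for 10 µM replicate 3, titled like replicate 2, the library name gave the number. The 14894 genes above 0.5 CPM in 2 or more of 12 libraries were tested with edgeR 4.0.16 (TMM, glmQLFit, glmQLFTest) in R 4.3.3, per pair of groups on 8 libraries, with Benjamini-Hochberg adjustment over all genes and a threshold of 0.05. The scripts were tested on simulated data. Likeness is Pearson's r of log2 CPM (prior count 2). Genes named are the 9 members, listed genes that were called or define their list, and for each member the 3 most alike genes averaging 1 CPM or more. Positions and exon lengths are those of GENCODE M21, promoters those of RefSeq, aligned with Biopython 1.88. Alternatives were DESeq2 1.42.0, limma-voom (limma 3.58.1), other normalizations and filters, all 12 libraries in the fit, a replicate block and leaving out each library.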

Additional observations from a re-analysis of the deposited data

How the results depend on the processing

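At 10 µM against vehicle, edgeR called 61 genes, and 250 were called by DESeq2, 150 with no filter, 118 with all 12 libraries in the fit and 3 with a replicate block. With 1 library left out it called from 4 genes (10 µM replicate 2 left out) to 122 (vehicle replicate 4 left out). Of the 9 eosinophil genes, 0 were called at 10 µM in the fit reported, and 1 by DESeq2 (*Ear6*), 1 with no filter (*Rnase2a*) and 1 with all 12 libraries (*Rnase2a*); with 1 library left out, 0 to 1. Of the related lists, 17 genes were called by DESeq2, 13 with no filter and 0 with the replicate block at 10 µM, and 0 to 10 with 1 library left out. At 50 µM against vehicle, leaving out 1 library gave 1248 genes (vehicle replicate 3) to 2689 (vehicle replicate 4) beside 2010, and 5 to 6 of the 9. Replicate numbers were shared between groups, and the labels do not say whether they pair the libraries. Same-numbered libraries correlated between -0.242 and 0.142 in their deviations from the group means. Without values for differently numbered libraries, these r cannot show whether the libraries are paired. For flow cytometry of such cultures the paper used a repeated measures test. At 50 µM against vehicle the replicate block called *Prg2* (-0.27) and did not call *Ear10* (-0.90), *Pim1*, *Ccl8*, *Il13*, *Il33* or *Il4ra*. Against settings other than leaving out a library, 177 of 184 values of the 9 genes kept direction and call, 2 lost the call, 5 gained it and 0 changed sign. With 1 library left out, 11 of 216 changed sign, all of them values not called: *Il5ra* at 10 µM ranged from -0.35 to 0.21 on the log2 scale, *Ear2* at 10 µM from -0.05 to 0.03, and at 50 µM against 10 µM *Prg2* from -0.03 to 0.10 and *Epx* from -0.02 to 0.18. The cause of these shifts was not tested. Counts were low for *Il5ra*, with 3 in its lowest library, and for *Rnase2a* with vehicle, with 0 and 3 in its lowest libraries.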
